A study of Mus musculus with 4 samples.

Results

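The cells described here are fibroblasts of the mouse dorsal root ganglion (DRG) in which no transcript of 4 genes of the adventitial, or universal, fibroblast (Pi16, Dpp4, Clec3b and Pcolce2) was counted. They were chosen on their own counts. A cell was kept when it held at least 10 unique molecular identifiers (UMI, 1 per captured transcript) over Col1a1, Col1a2 and Dcn, at most 3 over the endothelial genes Pecam1, Cldn5 and Cdh5, at most 4 over the macrophage genes C1qa, C1qb and C1qc, at most 1 of the smooth muscle gene Myh11, and 0 over the 4 adventitial genes. Of 6975 deposited barcodes, 6095 passed limits on depth, gene number and mitochondrial share, and 890 of these (14.6%) met the rule. The same gate with at least 1 UMI of the 4 adventitial genes gave 404 adventitial fibroblasts, which served as the comparator.

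The study profiled DRG cells of C57BL/6 mice of 8 to 12 weeks, all female by its methods, with droplet 3′ single-cell RNA-seq. The 2 control libraries came from naive, uninjured animals and the 2 injury libraries from animals 3 days after a crush of the sciatic nerve, so the axons were damaged at a distance from the ganglion that was sampled. No genotype distinguished the groups. The methods name isoflurane and buprenorphine at surgery and describe no sham operation for naive animals. Anaesthetic, analgesic and surgery thus went with the crush and cannot be told apart from it. The ganglia, L4 by the labels and L4 and L5 by the methods, were digested with papain and collagenase, and live cells were sorted before loading. Each library held cells pooled from several mice, so the spread between the 2 libraries of a condition is a spread between pools and not between animals, and p-values measure only that spread. The libraries held 5585909, 11210875, 11163177 and 9477167 UMI in control 1, control 2, injury 1 and injury 2.

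Fibroblasts lay down and remodel the collagen scaffold of the nerve and its ganglion. In peripheral nerve they occupy the outer coat (epineurium) and the space among the axons (endoneurium), and related flattened perineurial cells form the sheath around each bundle. Adventitial fibroblasts, marked by Pi16 and Dpp4, lie around vessels and in the outer coats of many organs. Decorin (Dcn) is a small proteoglycan that binds collagen fibrils, and Col1a1 and Col1a2 encode the chains of type I collagen.

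In these cells the UMI count over Col1a1, Col1a2 and Dcn had a median of 158.5 and ran from 10 to 677. Just inside the limit, 15 cells held 10 or 11 of these UMI, and just outside it 23 cells held 8 or 9 and met the other limits. Decorin carried most of the choice: 818 cells reached the limit on Dcn alone and 586 on Col1a1 and Col1a2 alone. Of the 404 comparator cells, 162 held exactly 1 UMI of the adventitial genes, 58 held 2 and 184 held 3 or more. Lacking the markers thus means that none was counted at a median depth of 4071 UMI per cell (4271.5 in the comparator). When every cell was thinned to 2000 UMI before gating, 902 cells met the rule and 275 were comparators.

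Fibroblast genes that the rule had not used were counted in most of the cells. A UMI of Col3a1, a fibrillar collagen chain, was found in 90.8% of them and a UMI of Serpinf1, a secreted serpin, in 92.5%. In 958 macrophages of the same libraries (at least 10 UMI over C1qa, C1qb and C1qc, at most 2 over Col1a1, Col1a2 and Dcn, median 4080.5 UMI) these shares were 4.28% and 38.5%. The limit on collagen and decorin UMI lowers such shares by construction, and in the 1039 macrophages without it, an alternative added after the data were seen, they were 6.83% and 40.4%. Receptor genes were counted in fewer cells: Pdgfra in 31.2% and Pdgfrb in 18.5%, against 0% and 0.835% of macrophages with that limit and 0.481% and 1.44% without it. With every cell thinned to 1000 UMI the shares were 63.9% for Col3a1, 64.7% for Serpinf1, 9.33% for Pdgfra and 5.17% for Pdgfrb. The fibroblast label was thus met by the collagen gene in nearly all cells and by the receptor genes in a smaller share.

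The cells made up 15.1% in control 1 (196 of 1301) and 20.3% in control 2 (272 of 1341) of the filtered cells. They made up 9.76% in injury 1 (232 of 2377) and 17.7% in injury 2 (190 of 1076). The means were 17.7% ± 3.69 in control and 13.7% ± 5.58 in injury (SD, n = 2 each). The conditions overlapped, injury 2 lying above control 1, and the difference of -3.97 percentage points gave p = 0.667 in an exact two-sided permutation test, whose smallest possible p is 0.333. With every cell thinned to 2000 UMI before gating the shares were 20.8%, 20.5%, 12.6% and 19.2% in control 1, control 2, injury 1 and injury 2, which did not overlap between conditions (difference -4.74 points, exact permutation p = 0.333, the smallest possible). Without injury 1 the difference in the unthinned cells was -0.0164 points. As a share of both fibroblast gates they were 69.3%, 68.9%, 70.1% and 66.7% in control 1, control 2, injury 1 and injury 2, so the balance of the gates varied little between libraries.

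**Figure D1:**
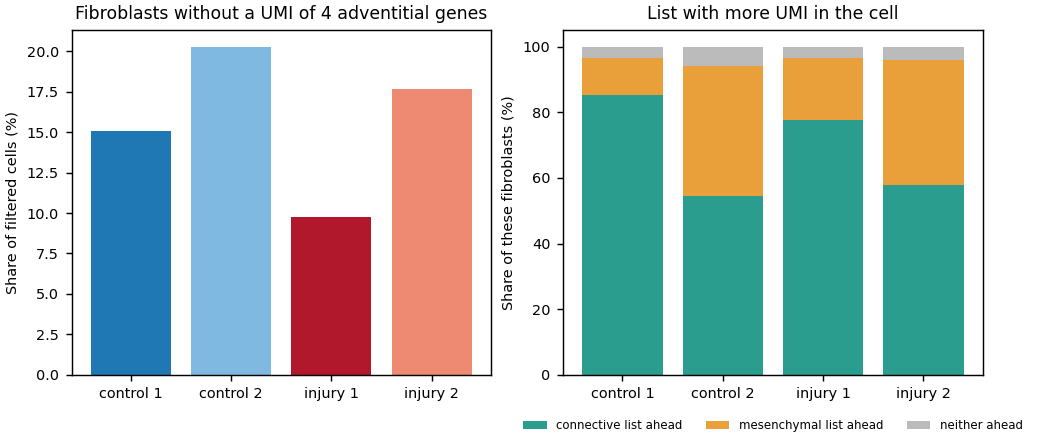
Left, the share (%) of filtered cells in each library that were fibroblasts without a UMI of the 4 adventitial genes, from 9.76% in injury 1 to 20.3% in control 2. Right, the share (%) of these fibroblasts in which the connective tissue list, the mesenchymal list or neither had more UMI; the connective tissue list was ahead in 85.2% of them in control 1 and 54.4% in control 2.

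Apolipoprotein D had the highest mean level of all transcripts over the 4 libraries, with Malat1 above it in control 2 and injury 2. Apod, which encodes a secreted lipid carrier, was 57252, 33357, 84267 and 43572 counts per 1000000 UMI (CPM, over the summed cells of a library) in control 1, control 2, injury 1 and injury 2. Both replicate 1 libraries were above the replicate 2 library of their condition, and the conditions overlapped. A UMI of Apod was found in 92.2% of the cells, against 43.01% of macrophages, and the cells held 78.8% of all Apod UMI of the filtered cells. Its mean was 54612 ± 22061 CPM (SD, n = 4). Dcn averaged 37176 ± 12955 CPM, the fibril-binding proteoglycan Lum 6958 ± 1957 CPM, Apoe, another lipid carrier, 6314 ± 1134 CPM and the iron carrier Trf 3585 ± 1510.0 CPM. These are levels of 3′ end counts, which do not grow with transcript length.

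The other transcripts among the 20 most abundant included the nuclear RNA Malat1 (37299 ± 6837 CPM), the actin-severing gelsolin Gsn (8722 ± 5966), the cysteine protease inhibitor Cst3 (5644 ± 978), the matrix protein Sparc (5271 ± 1312) and the ferritin chains Fth1 (6190.3 ± 815) and Ftl1 (4161 ± 192). The remaining ones were Ubb, Fos, Itm2b, Rpl13 and 5 mitochondrially encoded transcripts. Gsn was 17178, 4673, 8658 and 4377 CPM in control 1, control 2, injury 1 and injury 2. The mitochondrial mt-Atp6 was 6721, 13449.8, 8394 and 12167 CPM in the same order. Gsn was thus higher and mt-Atp6 lower in the replicate 1 libraries of both conditions, and the conditions overlapped for both genes. The median mitochondrial share per cell was 2.35%, 4.95%, 2.97% and 4.39% in the same order.

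**Figure D2:**
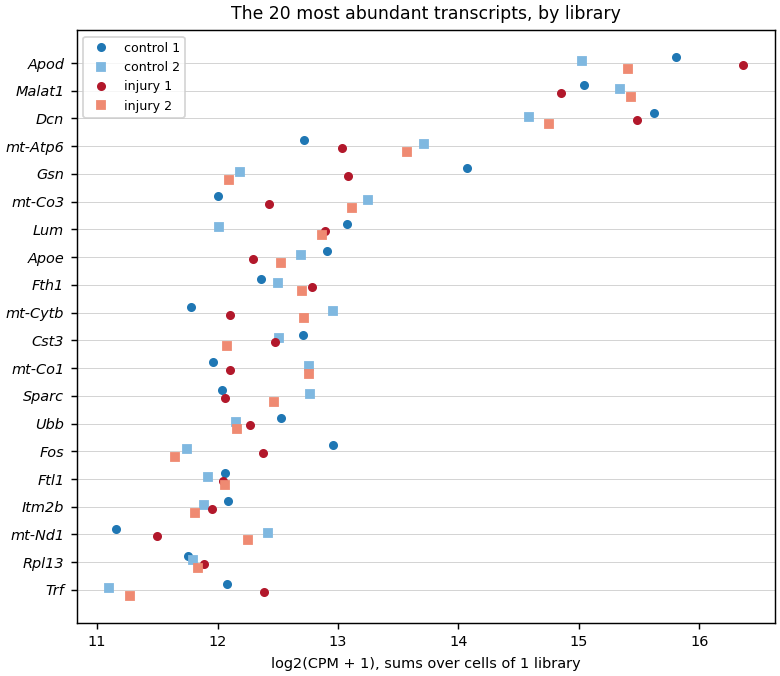
Level of the 20 most abundant transcripts of the fibroblasts lacking adventitial markers, as log2(CPM + 1) of the UMI summed over the cells of each library, with a colour for each condition and a marker for each replicate. Apod is the highest transcript of control 1 and injury 1, and Malat1 is above it in control 2 and injury 2.

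Immediate early genes, which encode transcription factors induced within minutes by many stimuli, also followed the replicate number. Fos was 7958, 3429, 5314 and 3202 CPM in control 1, control 2, injury 1 and injury 2, and Jun 6288, 1487, 3156 and 1649.5 CPM. The 16 immediate early and heat shock genes together, led by Fos, summed to 29980.0, 11711, 17689 and 10874 CPM. Control 1 was the highest library for the list, and both replicate 2 libraries were below both replicate 1 libraries.

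Transcripts of other cells were counted among these fibroblasts, those of satellite glia and Schwann cells more in the replicate 2 libraries. The 8 satellite glial genes summed to 10.5, 817, 64.4 and 530.1 CPM in control 1, control 2, injury 1 and injury 2, with the leading gene Fabp7 at 6.54, 700.1, 60.6 and 452 CPM. The 8 Schwann cell genes, led by Pmp22, which fibroblasts express as well, summed to 487, 2979, 319 and 1767 CPM. The 5 neutrophil genes summed to 124, 80.1, 33.6 and 1753 CPM, and in injury 2 a single cell held 969 of the 1069 UMI of S100a8. The satellite glial and Schwann cell sums were thus highest in control 2 and injury 2, and the neutrophil sum in injury 2. The 5 non-myelinating Schwann cell genes, led by Ngfr, summed to 310.0, 205, 171 and 149 CPM, higher in replicate 1 than in replicate 2 of each condition. Of 825 Ngfr UMI in all filtered cells, 514 were in the fibroblasts described here, 122 in adventitial fibroblasts and 189 elsewhere, whereas 1974 of 2015 UMI of the list's Sox10 were elsewhere. The 8 smooth muscle and pericyte genes, led by Tagln, summed to 52.3, 252, 71.1 and 665 CPM. The 6 neuron genes, led by Tubb3, reached at most 382 CPM, the 8 macrophage genes, led by Lyz2, 201 CPM, the 6 endothelial genes, led by Ly6a, 185 CPM and the 5 erythroid genes, led by Hbb-bs, 159 CPM. No gene of these lists was at 0 over the 4 libraries. Of the 4 T cell genes Cd3d and Cd3g were at 0, and Cd3e and Trbc2 had 1 UMI each. The part of this RNA in the results was not tested gene by gene; 122 cells with more than 2 UMI over 6 genes of glia, red blood cells and macrophages, Fabp7, Hbb-bs and Lyz2 among them, were left out in 1 of the alternative fits.

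The cells were not of a single kind. Lists of the leading genes of 2 of the study's clusters, named connective tissue and mesenchymal and chosen by the study on these samples, divided them. On 7 connective tissue genes (Osr2, A2m, 6030408B16Rik, Cdkn2a, Cdkn2b, Ccl11 and Meox1) against 10 mesenchymal genes (Mfap4, Slc47a1, Slc4a10, Nog, H19, Igf2, Comp, Sfrp4, Dio2 and Tspan11), 605 cells (67.98%) had more UMI of the first list, 246 (27.6%) more of the second, and 39 neither. Apod and Lum belong to the first list and were left out of the count, a choice made after their values were seen, because they are far more abundant than the rest. Few cells lay between the lists: 34 held at least 3 UMI of each, 73 were within 1 UMI of a tie and 33 held no UMI of either.

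The genes that made the division are given as a description. Ccl11 (eotaxin 1, an eosinophil attractant) averaged 1835 against 14.4 CPM in the cells with the connective tissue and with the mesenchymal list ahead. The cyclin-dependent kinase inhibitors Cdkn2a (481 against 20.1 CPM) and Cdkn2b (451 against 12.8) and the transcription factor Osr2 (276 against 1.42) lay the same way. Sfrp4, a secreted Wnt antagonist, averaged 89.7 against 7289.9 CPM in the same order. The growth factor Igf2 (2.22 against 490.5 CPM), the noncoding RNA H19 (7.87 against 1404) and the elastic fibre protein gene Mfap4 (6.79 against 2004) were likewise high in the second kind.

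Genes outside the division followed it, again as a description with no test, since the cells were divided on their own expression. Apod was 66498, 61732, 101130.3 and 73945 CPM in the cells with the connective tissue list ahead in control 1, control 2, injury 1 and injury 2, and 4037, 2274, 7873 and 1713 CPM in those with the mesenchymal list ahead. Its levels did not overlap between the kinds. Lum averaged 9907 against 539 CPM. The chemokine genes Ccl7 (832 against 27.97 CPM) and Cxcl1 (807 against 23.5), the iron and copper carriers Trf (4954 against 280.1) and Cp (972 against 125), and the low-affinity neurotrophin receptor Ngfr (192 against 2.84) were high with Apod. Igfbp5, an insulin-like growth factor binding protein (68.4 against 3402 CPM), the fibril-associated collagen Col12a1 (9.46 against 683) and fibromodulin (Fmod, 2.58 against 243) were high with the mesenchymal list. Col1a1 was close in both (2056 against 2676 CPM).

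**Figure D3:**
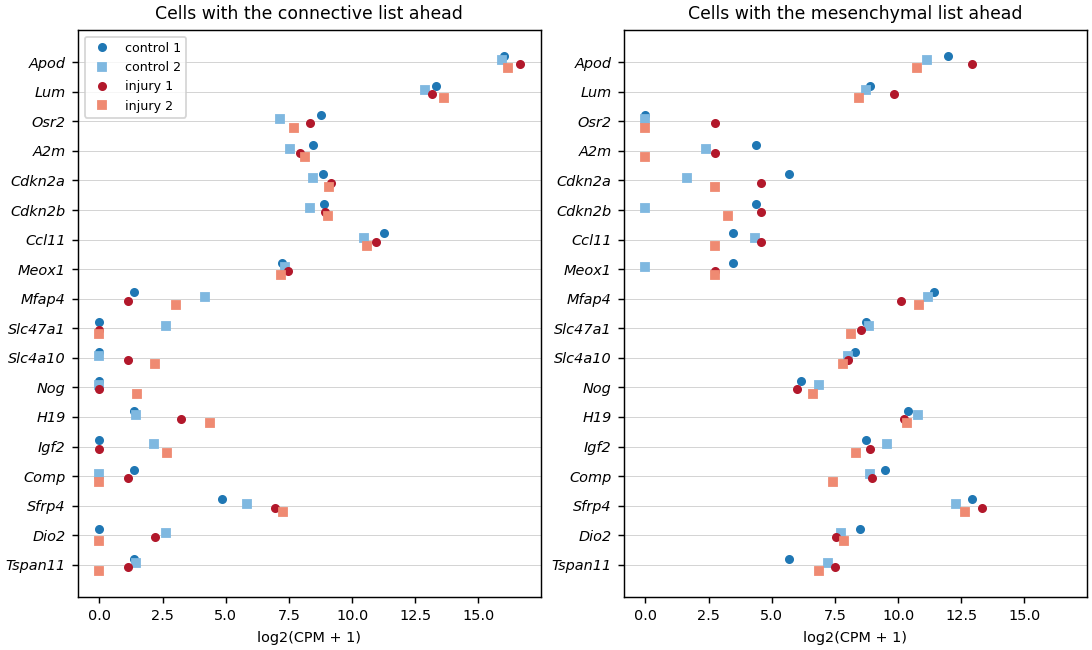
Level, as log2(CPM + 1) per library, of genes of the connective tissue and mesenchymal lists in the cells with the first list ahead (left) and with the second ahead (right), with colours and markers as in the plot of the most abundant transcripts. Apod and Lum were not used to divide the cells and lie higher on the left in all 4 libraries.

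The balance of the kinds went with the replicate number. The connective tissue list was ahead in 85.2%, 54.4%, 77.6% and 57.9% of the cells in control 1, control 2, injury 1 and injury 2. The means were 69.8% ± 21.8 in control and 67.7% ± 13.9 in injury (SD, n = 2 each; exact two-sided permutation test, p = 1.0). Sums over all the cells therefore mix the kinds in parts that differ between replicates of a condition.

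Some of the cells carried genes of a cluster that the study left without a name, whose list holds Cldn1 (a tight junction claudin), Krt19 and Klf5, which are also genes of perineurial cells. At least 3 UMI of that list were held by 122 cells, 10, 47, 29 and 36 in control 1, control 2, injury 1 and injury 2. The 9 perineurial genes, led by Klf5, summed to 254, 555, 351 and 544 CPM, the replicate 2 libraries being the higher of each condition.

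Injury was first tested over all the cells. No gene of 8133 was called (0.0%) by edgeR's quasi-likelihood test at a Benjamini-Hochberg adjusted p under 0.05, the smallest adjusted p being 0.259, and 130 genes (1.6%) had an unadjusted p under 0.05. DESeq2 called 4 genes (0.0492%), all higher after injury: Saa1, Saa2, Ccl9 and Gcg. With the replicate number as a block, edgeR called 4 (0.0492%), Saa1, Ccl9, Gcg and Gal. With 1 library left out it called 65 genes without control 1, 103 without control 2, 1 without injury 1 and 3 without injury 2. Saa1, which encodes the acute phase protein serum amyloid A1, had the smallest p. It was 23.5, 30.8, 218 and 165 CPM in control 1, control 2, injury 1 and injury 2, a log2 fold change of 2.90 ± 0.30 (SE), and both injury libraries lay above both controls.

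The other genes of smallest p above control were Ccl9, a chemokine for myeloid cells (6.54, 9.69, 116 and 69.6 CPM in the same order of libraries, log2 fold change 3.57 ± 0.44), the inter-alpha-trypsin inhibitor chain Itih3 (4.44 ± 0.77), the retinol dehydrogenase Rdh10 (1.52 ± 0.27), the matrix protein gene Matn4 (1.68 ± 0.30), the glucagon precursor Gcg (3.16 ± 0.57), Isyna1, an enzyme of inositol synthesis (1.39 ± 0.28), the hyaluronan-binding Tnfaip6 (1.39 ± 0.29), Saa2 (2.94 ± 0.57) and the serpin Serpina3n (2.24 ± 0.49). Below control were the class I gene H2-Q7 (-3.48 ± 0.76), the ribonuclease genes Rnaset2b (-1.59 ± 0.35) and Rnaset2a (-1.37 ± 0.40), the interferon-induced GTPase Iigp1 (-1.81 ± 0.43), Prodh (-1.41 ± 0.37), the angiopoietin-like Angptl7 (-1.08 ± 0.29), the protease inhibitor Reck (-1.29 ± 0.37), Dpep1 (-0.91 ± 0.28), Rapgef3 (-1.79 ± 0.57) and Fmo5 (-1.48 ± 0.47). For each of these 20 genes the 2 conditions did not overlap, which their choice by p favours, and none passed the adjusted threshold. Saa1 and Saa2, Rnaset2a and Rnaset2b, and the H2 genes have near-identical copies among which reads can be split or lost, so their values are uncertain.

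None of the 19 pathway lists had a called gene over all the cells. Of 12 fibrillar collagen genes 2 were above 0 and 10 below on the log2 fold change (median -0.11, against -0.01 over all genes tested). Col3a1, the most abundant of them, was 2768, 1858, 1303 and 1845 CPM in control 1, control 2, injury 1 and injury 2 (-0.50 ± 0.35), both injury libraries lying below the lower control, and was not called. Of 12 complement and acute phase genes, 8 were above 0 and 4 below (median 0.42). Of 15 immediate early and heat shock genes, 1 was above 0 and 14 below (median -0.46), and of 12 interferon-induced genes, 3 and 9 (median -0.29). The 12 cell cycle genes summed to at most 84.5 CPM, and 2 of them had the counts to be tested.

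The cells with the connective tissue list ahead were then tested alone, a choice made after the data were seen. They numbered 167, 148, 180 and 110 in control 1, control 2, injury 1 and injury 2. Of 6147 genes, 14 rose (0.228%) and 4 fell (0.0651%) after injury, 18 in all (0.293%), by edgeR's quasi-likelihood test at an adjusted p under 0.05. DESeq2 called 14 and 4, of which 10 and 2 were the same genes. With 1 library left out edgeR called 87 genes without control 1, 150 without control 2, 66 without injury 1 and 51 without injury 2, where the lone library of a condition is assumed to vary like the others. Of the 14 genes that rose, 12 were called without injury 1 and all 14 in each of the other fits with 1 library left out; the 4 that fell were called in each.

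Saa1 and Saa2 rose together, and their 5′ flanks are shown because the genes lie close to each other on chromosome 7 and are near-copies. The 250 bases before each gene start come from RefSeq (GRCm38.p6), written 5′ to 3′ on the strand of the gene, together with those of Kng2, another gene that rose. Capitals mark a match to TTGCNNAA, letters of a C/EBP site, searched on both strands. The windows are chr7:46742981-46743230 (minus strand), chr7:46751583-46751832 (plus strand) and chr16:23029102-23029351 (minus strand).
Saa1: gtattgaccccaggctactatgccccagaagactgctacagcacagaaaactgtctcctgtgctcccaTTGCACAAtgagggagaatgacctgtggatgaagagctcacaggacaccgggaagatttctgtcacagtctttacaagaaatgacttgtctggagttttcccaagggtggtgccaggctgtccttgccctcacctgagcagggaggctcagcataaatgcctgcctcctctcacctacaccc
Saa2: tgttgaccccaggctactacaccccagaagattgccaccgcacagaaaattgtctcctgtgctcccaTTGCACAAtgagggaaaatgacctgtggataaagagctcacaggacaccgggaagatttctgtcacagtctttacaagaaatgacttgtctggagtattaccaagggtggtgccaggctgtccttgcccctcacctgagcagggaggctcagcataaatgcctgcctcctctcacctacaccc
Kng2: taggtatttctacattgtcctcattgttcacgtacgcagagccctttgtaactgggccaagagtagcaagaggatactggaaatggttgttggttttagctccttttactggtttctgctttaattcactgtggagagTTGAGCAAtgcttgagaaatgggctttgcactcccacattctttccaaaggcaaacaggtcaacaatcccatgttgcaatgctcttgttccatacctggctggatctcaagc
The Saa1 and Saa2 windows were identical at 238 of 251 aligned positions (94.8%). The match began 182 bases before the start of Saa1, 183 before that of Saa2 and 112 before that of Kng2. RefSeq gave a window for 13 of the 14 genes that rose, and 4 of them held TTGCNNAA (Saa1, Saa2, Kng2 and Plac8), as did 9.56% of all 32851 windows of this length. The letters TTCNNNGAA of a STAT site were in 1 of them (Tnfaip6) and in 7.02% of all windows. A match of letters is a description and not a site.

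Saa1 in the cells with the connective tissue list ahead was 24.9, 60.2, 267 and 282 CPM in control 1, control 2, injury 1 and injury 2 (log2 fold change 2.79 ± 0.34 SE, edgeR adjusted p = 0.013). A UMI of it was found in 12, 14, 59 and 43 cells, so more cells held it after injury. Saa2 was 13.99, 20.6, 151 and 86.8 CPM (2.89 ± 0.40, adjusted p = 0.014). Outside fibroblasts they were rare: of 648 Saa1 UMI in all filtered cells, 439 were in the fibroblasts described here, 192 in adventitial fibroblasts and 17 in all other cells. In adventitial fibroblasts Saa1 was 20.3, 3.77, 183 and 206 CPM, both injury libraries again lying above both controls. A different injury change in the 2 gates was not called for Saa1 (difference of log2 changes -1.36 ± 0.61, edgeR adjusted p = 0.997).

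In the pathway lists, beside 0.228% of all genes tested, 1 of 6 Wnt and BMP modulators rose (Wif1), 1 of 16 matrix proteases and their inhibitors (Timp1) and 1 of 11 complement and acute phase genes (Serpina3n). Wif1, a secreted Wnt inhibitor, was 4.66, 8.60, 114 and 156 CPM in control 1, control 2, injury 1 and injury 2 (4.39 ± 0.38, edgeR adjusted p = 0.00079) and was found in 3, 5, 45 and 31 cells. Ccl9 was 4.66, 12.04, 141 and 110.3 CPM (4.005 ± 0.41, adjusted p = 0.002). Timp1, an inhibitor of matrix metalloproteinases, was 18.7, 32.7, 156 and 99.5 CPM (2.43 ± 0.37, adjusted p = 0.023). In all of these the control libraries were low and both injury libraries high. The kininogen gene Kng2 (4.61 ± 0.60), Itih3 (4.23 ± 0.61) and Plac8 (2.36 ± 0.32) rose too. Serpina3n, an inhibitor of serine proteases (18.7, 12.04, 53.3 and 95.8 CPM, 2.30 ± 0.40), lay close to the threshold (adjusted p = 0.047). Tnfaip6 (1.36 ± 0.22), Adh1 (1.56 ± 0.26) and Isyna1 (1.75 ± 0.28) had the smallest fold changes of the 14.

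Gcg and a pair of retinol-oxidising enzymes were among the 14. Gcg, whose product is cut to glucagon and glucagon-like peptides, was 17.1, 10.3, 122 and 99.5 CPM in control 1, control 2, injury 1 and injury 2 (3.08 ± 0.36, edgeR adjusted p = 0.0056). A UMI of it was found in 9, 6, 50 and 24 cells, with at most 10 in 1 cell. Of its 216 UMI in all filtered cells, 176 were in the fibroblasts described here, 38 in adventitial fibroblasts and 2 elsewhere. Rdh10 was 20.2, 18.9, 82.96 and 110.3 CPM (2.36 ± 0.32, adjusted p = 0.013) and the alcohol dehydrogenase Adh1 54.4, 51.6, 124 and 175 CPM (adjusted p = 0.03).

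For Ccl9, Rdh10, Plac8, Isyna1 and Serpina3n, 5 of the 14, cells outside both fibroblast gates held most of the UMI. Of 2774 Ccl9 UMI, 2462 were outside both fibroblast gates, and a UMI was found in 32.8%, 51.9%, 54.1% and 62.1% of macrophages in control 1, control 2, injury 1 and injury 2. Outside the gates were 4196 of 4787 Plac8 UMI, 710 of 884 for Serpina3n, 843 of 1165 for Isyna1 and 257 of 501 for Rdh10. The part of free RNA from those cells was not tested. Fabp7 in the cells with the connective tissue list ahead was 6.22, 874, 71.1 and 170.0 CPM.

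**Figure D4:**
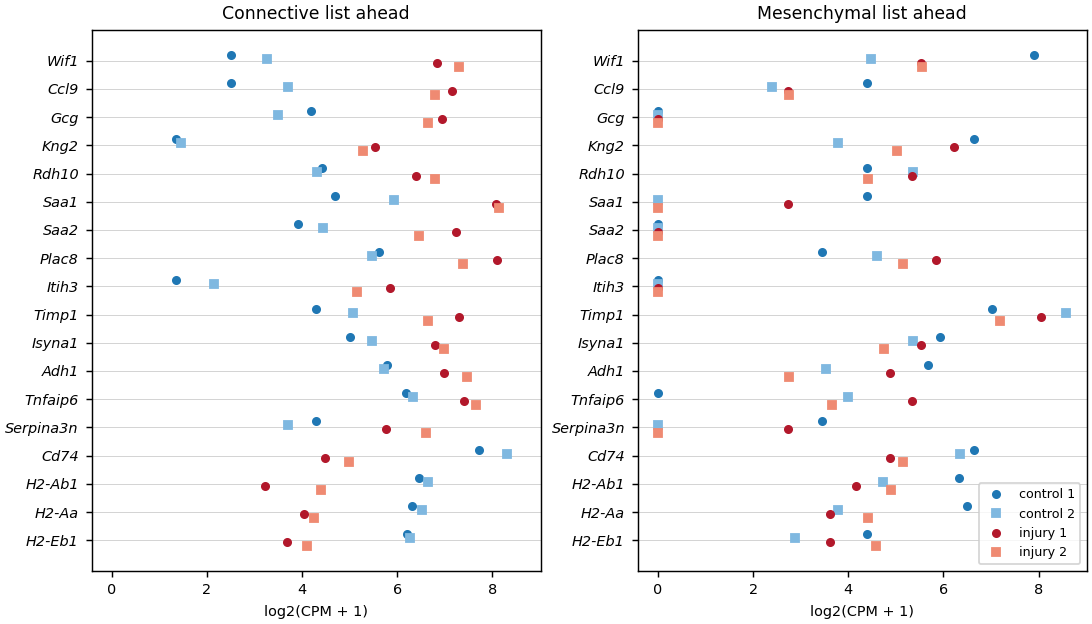
Level, as log2(CPM + 1) per library, of the 14 genes that rose and the 4 (Cd74, H2-Ab1, H2-Aa and H2-Eb1) that fell after injury in the cells with the connective tissue list ahead (left), and of the same genes in the cells with the mesenchymal list ahead (right), with colours and markers as in the plot of the most abundant transcripts. On the left the conditions do not overlap for any of the 18 genes, which their choice as called genes in these libraries favours. On the right Gcg, Saa2 and Itih3 are at 0 in all 4 libraries.

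The 4 genes that fell belong to MHC class II, which presents antigen to T cells: the invariant chain Cd74 and the chains H2-Ab1, H2-Aa and H2-Eb1. Cd74 was 209.8, 316, 21.3 and 30.7 CPM in control 1, control 2, injury 1 and injury 2 (-3.27 ± 0.29, edgeR adjusted p = 0.00079), and H2-Ab1 87.04, 99.8, 8.30 and 19.9 CPM (-2.72 ± 0.38, adjusted p = 0.014). Single cells weighed heavily in these sums. In control 2, 1 cell held 160 of 184 Cd74 UMI and 16 cells had any, whereas in control 1 67 cells had a UMI and the highest held 37 of 135. When the cell with the most UMI of a gene was left out of each library, an alternative chosen after the data were seen, none of the 4 was called. Cd74 then had a log2 fold change of -2.19 ± 0.75 with an adjusted p of 0.982, and H2-Ab1 of -2.23 ± 0.55 with an adjusted p of 0.439, so both values stayed below 0 with a larger SE, and H2-Aa and H2-Eb1 no longer had the counts to be tested. That edgeR fit called 15 genes higher (0.258%) and 0 lower (278 at an unadjusted p under 0.05), the same 14 that rose and the pentraxin Ptx3 (104, 60.2, 289 and 224 CPM). Cd74 is abundant in macrophages, a UMI being found in 98.7%, 97.5%, 93.6% and 86.8% of them by library, and the fibroblasts described here held 0.362% of its UMI.

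The cells with the mesenchymal list ahead gave no call. They numbered 22, 108, 44 and 72 in control 1, control 2, injury 1 and injury 2, so control 1 was thinly filled. Of 3908 genes, edgeR and DESeq2 each called 0 (0.0%), with 55 (1.41%) and 9 genes at an unadjusted p under 0.05. With 1 library left out edgeR called 14 genes without control 1, 24 without control 2, 16 without injury 1 and 12 without injury 2. Saa2, Gcg and Itih3 had no UMI in these cells in any library. Timp1 was 129.6, 382, 266 and 144 CPM there, and its conditions overlapped.

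The difference of the injury changes between the 2 kinds was tested directly. EdgeR called 21 of 7007 genes (0.3%), 11 with the more positive log2 change in the cells with the connective tissue list ahead (0.157%) and 10 with the more positive in the others (0.143%), and DESeq2 called 0 (47 at an unadjusted p under 0.05). Timp1 (difference 2.73 ± 0.38, edgeR adjusted p = 1.5e-06), Wif1 (5.62 ± 0.71), Kng2 (4.56 ± 0.96), Rdh10 (2.73 ± 0.65) and the complement gene C3 (4.11 ± 0.995) were in the first set. The immediate early gene Egr1 (-1.22 ± 0.27) and the Notch target Hes1 (-1.33 ± 0.29) were in the second. These differences moved with single libraries. Without control 1 that of Wif1 was 3.01 ± 0.84 and that of Kng2 2.60 ± 1.37, neither of them called. Without control 2 that of Timp1 was 2.09 ± 0.64, that of Rdh10 1.79 ± 1.36 and that of C3 3.05 ± 1.55. That of Egr1 was then -0.99 ± 0.34 and that of Hes1 -0.84 ± 0.41, and none of these genes was called without control 2. Timp1 was called with each of the other libraries left out. Egr1, Hes1 and C3 were not called without injury 1, nor were Rdh10, Kng2 and C3 without injury 2. In the control 1 library 1 cell with the mesenchymal list ahead held all 24 Wif1 UMI. With the highest cell of each library left out per gene, 5 of the 11 and 5 of the 10 were called. Timp1, Kng2, Egr1 and Hes1 were among them, and Wif1 (2.83 ± 1.23), Rdh10 (3.13 ± 0.87) and C3 (5.61 ± 1.70) were not. With 1 library left out the test called 40 genes without control 1, 35 without control 2, 18 without injury 1 and 11 without injury 2, among which were 8 of the 11 and 10 of the 10 without control 1, 6 of the 11 and 3 of the 10 without control 2, 9 of the 11 and 2 of the 10 without injury 1 and 3 of the 11 and 3 of the 10 without injury 2.

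Against adventitial fibroblasts of the same libraries the comparison describes where the gate lies. Cells were put on each side by genes of their own, so genes that go with those differ by construction, and the genes of the rule were left out. Of 7422 genes tested with the library as a block, 337 (4.54%) were higher and 320 (4.31%) lower by edgeR at an adjusted p under 0.05, 657 in all (8.85%). DESeq2 called 114 and 149, and without control 2 edgeR called 217 and 199. Against the adventitial cells with at least 3 UMI of the 4 genes it called 561 (8.32%) and 426 (6.32%), 987 in all (14.6%). In the comparator the neutrophil genes summed to 130, 5092, 19.6 and 2723 CPM in control 1, control 2, injury 1 and injury 2. The erythroid genes summed to 33.0, 3586, 93.8 and 1184 CPM there. On the log2 fold change 5 of 5 neutrophil and 4 of 4 erythroid genes were below 0, and Hbb-bt was called. Of 5 Schwann cell genes 5 were above 0 (median 1.96) and 0 called. The part of this RNA was not tested gene by gene.

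Pla2g7, a secreted phospholipase that degrades platelet-activating factor, had the largest fold change of the named genes that were higher. It was 358, 181, 141 and 116 CPM in control 1, control 2, injury 1 and injury 2, against 45.7, 54.6, 47.97 and 27.3 CPM in adventitial cells (log2 fold change 2.12 ± 0.19), and every library was higher than its adventitial counterpart. The collagen chain Col9a2 (1.70 ± 0.16), Cdkn2b (1.45 ± 0.23), the transcription factor Klf5 (1.44 ± 0.17), the secretory kinase Fam20c (1.40 ± 0.17) and Nrp2, a co-receptor of semaphorins and VEGF (1.36 ± 0.17), followed. The G-protein regulator Rgs16 (1.29 ± 0.17), the neurotrophin receptor Ntrk2 (1.25 ± 0.17), the matrix protein Tgfbi (1.24 ± 0.21), Ifitm1 (1.23 ± 0.23), the protease inhibitor A2m (1.22 ± 0.17) and Fxyd6, a regulator of the sodium pump (1.13 ± 0.11), completed the 12. Apod, at 54612 ± 22061 against 26207 ± 12310.4 CPM, was higher in all 4 libraries and was not called (1.17 ± 0.24, edgeR adjusted p = 0.108).

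Lower were genes that the rule had not used, markers of the adventitial cell among them. Ly6a, the stem cell antigen Sca-1, was 96.8, 123, 113 and 96.7 CPM in control 1, control 2, injury 1 and injury 2, against 1153, 1215, 1326 and 742 CPM in adventitial cells (-3.31 ± 0.10, edgeR adjusted p = 1.9e-17). Ly6c1 (-4.17 ± 0.39), Sfrp4 (-2.09 ± 0.17), galectin 3 (Lgals3, -1.86 ± 0.36), Igfbp5 (-1.82 ± 0.19) and Fhl1 (-1.77 ± 0.13) were lower too. Inmt (-1.51 ± 0.23), Igf2 (-1.45 ± 0.12), the growth hormone receptor Ghr (-1.41 ± 0.11), Crip1 (-1.39 ± 0.15), Metrnl (-1.38 ± 0.17) and the protease Prss23 (-1.37 ± 0.12) completed the 12. Sfrp4, Igfbp5 and Igf2 averaged 7769, 3176 and 374 CPM in adventitial cells. The cells with the mesenchymal list ahead, described above, were near or above these levels. Low levels of these genes were thus a trait of the cells with the connective tissue list ahead. The adventitial markers outside the rule (Cd34, Ly6c1, Sema3c and Cd248) were lower in 4 of 4. They were not absent: a UMI of Cd34 was found in 45.1% of the cells against 54.5% of adventitial cells. For Cd248 the shares were 10.0% and 21.3%. Of the mesenchymal list 7 of 10 were lower and 0 higher, and of the connective tissue list 5 of 9 were higher and 0 lower. The study chose both lists on these samples, so their direction is not independent evidence.

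**Figure D5:**
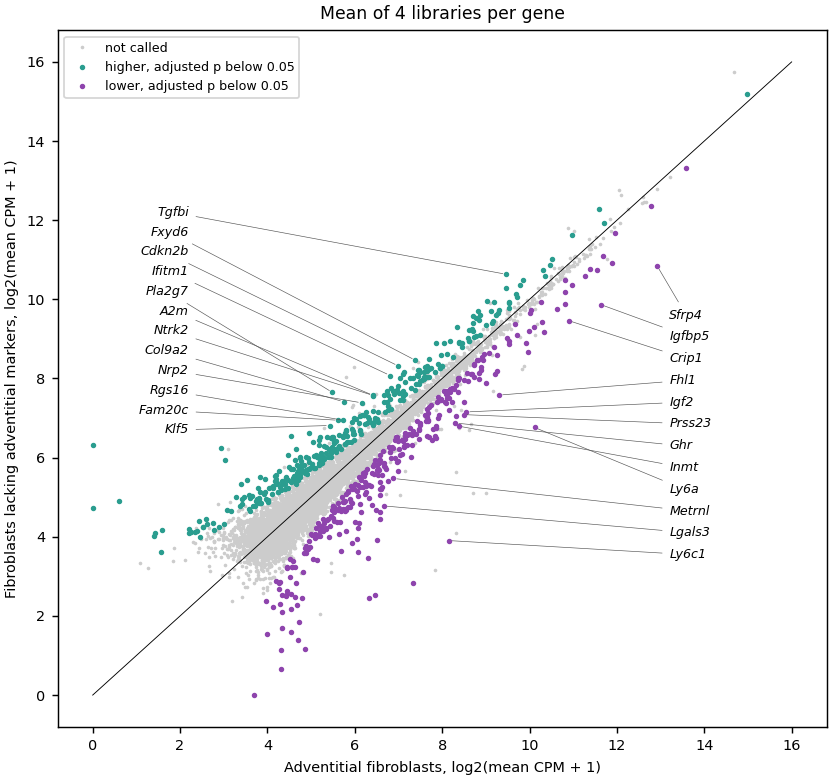
Mean level of each tested gene over the 4 libraries, as log2(mean CPM + 1), in adventitial fibroblasts (horizontal axis) and in fibroblasts lacking adventitial markers (vertical axis), with the line of equal level. The 12 named genes on each side were called and lay the same way in all 4 libraries; Ly6a lies at 1109 against 108 CPM.

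Of 12 fibrillar and microfibrillar collagens 8 were lower than in adventitial fibroblasts and 0 higher (median log2 fold change -0.58, against 0.00 over all genes tested, of which 4.31% were called lower and 4.54% higher). Col3a1 averaged 1944 ± 607 against 3769 ± 1149.7 CPM (-0.92 ± 0.10). Of 15 collagen processing genes 5 were lower and 0 higher, among them the lysyl oxidases Lox (-1.11 ± 0.14) and Loxl1 (-1.33 ± 0.13), which crosslink collagen. Of 25 matrix glycoprotein and elastic fibre genes 10 were lower, such as Sparc and fibronectin (Fn1), and 2 higher (Efemp1 and Sparcl1). Of 13 basement membrane genes, Col15a1, Col18a1, Lama2 and Lamb1 were higher and Col8a1 lower. Lama2, a laminin chain of muscle and Schwann cell basement membranes, averaged 133 ± 29.7 against 72.6 ± 19.7 CPM.

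Over all genes tested 8.85% were called, and in the lists of signals and receptors those not called were 9 chemokines and cytokines, 11 growth factors, 13 receptors, 6 Wnt and BMP modulators and 10 complement and acute phase genes. Of 15 chemokines and cytokines, Ccl7, Ccl11, Cxcl10, Cxcl16 and Il34 were higher and Csf1 lower. Il34 (0.55 ± 0.17) and Csf1 (-0.89 ± 0.23) encode the ligands of the macrophage receptor Csf1r and lay in opposite directions. Of 17 growth factors, 2 were higher, midkine among them (Mdk, 494 ± 27.99 against 291 ± 76.9 CPM), and Igf1, Igf2, Gdf10 and Ctgf lower. Of 16 receptors, Fgfr1 and Ntrk2 were higher and Tgfbr2 lower. Of 13 Wnt and BMP modulators, Wif1 and Frzb were higher and 5 lower, Sfrp4, Dkk2, Nog and Chrdl1 among them. Of 13 complement and acute phase genes, A2m was higher and 2 were lower, Clu (-0.42 ± 0.11) among them.

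Of 15 immediate early and heat shock genes 8 were higher and Klf4 lower (median 0.76), beside 4.54% called higher and 4.31% lower over all genes tested, against which the counts of the other lists here are read too. Fos averaged 4976 ± 2202 against 3096 ± 1594 CPM (0.76 ± 0.08) and was higher in each of the 4 libraries. Of 23 mesenchymal transcription factors, Osr2, Etv1, Tbx18, Klf5, Nr2f2 and Ebf2 were higher and Osr1, Foxp1, Foxp2, Prrx1 and Zic1 lower, the paralogs Osr2 (0.86 ± 0.14) and Osr1 (-1.94 ± 0.19) lying in opposite directions. Of 8 perineurial genes, Cldn1, Slc2a1, Klf5 and Tenm2 were higher and 0 lower. Of 10 solute transporters, Slc2a1, Slc1a3 and Slc7a11 were higher and Slc4a10 and Slc23a2 lower. None of 9 contractile genes was called by edgeR.

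Whether injury moved the 2 gates differently was tested as the interaction of gate and condition. EdgeR called 4 of 7433 genes (0.0538%), 1 with the more positive log2 change in the fibroblasts lacking adventitial markers (0.0135%) and 3 with the more positive in adventitial cells (0.0404%). DESeq2 called 0 (27 at an unadjusted p under 0.05). Ngfr, the leading gene of the non-myelinating Schwann cell list, was 259, 124, 116 and 56.1 CPM in control 1, control 2, injury 1 and injury 2, against 63.5, 18.8, 133 and 54.7 CPM in adventitial cells (difference -2.37 ± 0.31, edgeR adjusted p = 0.0019). In the cells with the connective tissue list ahead Ngfr was 306, 225, 142 and 95.8 CPM, both injury libraries below both controls, and was not called. Dnajb1, a heat shock cochaperone, was 382, 95.98, 141 and 66.5 CPM against 149.8, 60.3, 238 and 118 CPM (-1.85 ± 0.27, adjusted p = 0.0057). The other called genes were Saa3, counted in 0, 3, 2 and 1 cells by library, and the haemoglobin gene Hba-a2. With the highest cell of each library left out per gene, Ngfr and Dnajb1 were called, Hba-a2 was not (1.28) and Saa3 no longer had the counts to be tested. Hba-a2 was 1.07 in the cells with few UMI of other cells and not called there, nor without control 2 or without injury 2. Neither Ngfr nor Dnajb1 was called without injury 1 (-2.28 and -1.97), with the cells thinned to 2000 UMI (-2.05 and -1.66) or against adventitial cells with at least 3 UMI of the 4 genes (-1.23 and -1.08), and Dnajb1 was not called without control 1 (-1.39). With 1 library left out the test called 23 genes without control 1, 9 without control 2, 9 without injury 1 and 16 without injury 2.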

How the data were processed

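Single DRG cells were profiled in 4 libraries. Per the labels and the study's methods, the authors aligned the reads to mm10 with Cell Ranger and analysed them in Partek, and deposited raw UMI counts per gene and cell, not normalized, with gene and barcode lists that served here only as an index. Cells with 600 to 15000 UMI, 500 to 4000 genes and under 10% mitochondrial UMI were kept, and the rule was applied to them. The members, the gene lists and the tests were chosen with earlier results of these data known.

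UMI counts were summed per library over the cells of a gate and tested with edgeR 4.0.16 (filterByExpr, TMM, robust quasi-likelihood fit) in R 4.3.3, with Benjamini-Hochberg adjustment over all genes tested and calls at an adjusted p under 0.05. The study compared single cells by analysis of variance; sums replaced them because cells are not replicates. DESeq2 1.42.0, other size factors, filters and gates and the omission of each library were tried as alternatives. The fits on the cells divided by lists and the omission of the highest cell were added after seeing the data. SE is the log2 fold change over the square root of F. The genes named were the 20 most abundant, the 10 of smallest p in each direction for injury, called or not, the 12 largest called differences of at least 100 CPM with 1 direction in 4 libraries against adventitial cells, and list members; called genes of the added fits were also named, a choice made after their values were seen. The fits were also run on simulated data, and that run is not offered as support for the calls. Results for a few genes are not reported here.

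Scrublet (scanpy 1.11.5) marked 34 of 6095 cells (0.558%) as doublets, 4 of them members, and they were kept in the main fits. The 890 members held 3902669 UMI, 764509, 1135628, 1040434 and 962098 in control 1, control 2, injury 1 and injury 2, with medians per cell of 3540, 3764, 4216 and 4557. Over all pairs of libraries 20 barcodes were shared, none of them by members of both.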

Additional observations from a re-analysis of the deposited data

Results flagged for a closer look

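The injury change differed between the fibroblasts lacking adventitial markers and the adventitial fibroblasts, by edgeR's test of the interaction, for Hba-a2 (3.92), Ngfr (-2.37), Dnajb1 (-1.85) and Saa3 (-8.02), given as the difference of the log2 changes, positive where the change was the more positive in the former. Hba-a2 was 0, 7.04, 1.92 and 22.9 CPM in control 1, control 2, injury 1 and injury 2, against 10.2, 733, 10.9 and 158 CPM in adventitial cells, where control 2 is the highest. Saa3 was 0, 38.7, 37.5 and 10.4 CPM, and 1 cell held 30 of its 44 UMI in control 2 and 38 of 39 in injury 1. Hba-a2 was 1.07 in the cells with few UMI of other cells and 1.28 with the highest cell of each library left out, and was called in neither. DESeq2 called none of the 4.

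The injury change also differed between the cells with the connective tissue and those with the mesenchymal list ahead. Among the genes with the more positive change in the former were Nnat (11.14), Timp1 (2.73), Wif1 (5.62), Coch (5.38), Lbp (1.78), Kng2 (4.56), Col14a1 (3.05), Rdh10 (2.73), Entpd2 (1.63) and C3 (4.11). It was more positive in the latter for Camp (-4.12), S100a9 (-4.46), Ndrg2 (-1.16), Meg3 (-1.28), Btg2 (-1.24), Egr1 (-1.22), Hes1 (-1.33), Sostdc1 (-2.29), Sqle (-2.14) and Socs3 (-0.89). For Nnat, 1 of the 22 cells with the mesenchymal list ahead in control 1 held all 132 UMI. In injury 2, 1 cell with the mesenchymal list ahead held 322 of 331 S100a9 UMI and 131 of 137 Camp UMI; both are neutrophil genes. Without injury 2 the difference of S100a9 was -0.91 ± 1.57 and that of Coch 2.07 ± 8.76, and without control 2 that of Sostdc1 was -3.76 ± 4.87, none of them called. That of Nnat could not be estimated without injury 2 (SE 28184) and ran from 7.88 to 13.93 with each of the other libraries left out. DESeq2 called none of the 21.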

How the results depend on the processing

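Depth and the number of libraries limit these results: with 2 libraries a condition the share of cells cannot pass a threshold, genes of few UMI rest on few cells, and satellite glial and Schwann cell RNA, mitochondrial share and the balance of the kinds move with the replicate number. Over all the cells, the count of injury genes (0 in edgeR) became 4 with DESeq2, 26 with no filter on low counts and 1 to 103 with 1 library left out. Against adventitial cells the count (657) became 263 with DESeq2, 340 with the cells thinned to 2000 UMI, 417 with the gates applied to thinned cells, 987 against cells with at least 3 adventitial UMI, 51 at a log2 fold change of 2 or more either way, and 416 to 618 with 1 library left out. The interaction of gate and injury (4) became 0 with DESeq2, 26 with no filter, 7 without doublets, 10 with at least 20 collagen and decorin UMI, 11 in cells with few UMI of other cells and 9 to 23 with 1 library left out. That of Saa3 could not be estimated against cells with at least 3 adventitial UMI (0.257, SE 4502) or without control 2 (SE 8449). In the cells with the connective tissue list ahead the count (18) became 59 with no filter and 51 to 150 with 1 library left out. In those with the mesenchymal list ahead the count (0) became 1 with no filter and 12 to 24. The difference between these kinds (21) became 0 with DESeq2 and 11 to 40. Of the values of single genes under the alternatives, 800 kept direction and side of the threshold, 46 passed it newly, 119 no longer passed it and 1 changed sign, the Saa3 value that could not be estimated; 6 shares of cells with a UMI moved when cells were thinned to 1000 UMI.

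The study speaks of 2 biological replicates and of batches of pooled mice, without stating which control and injury libraries shared a batch, and the labels number 1 library of each condition and not the other. Replicate 1 minus replicate 2 correlated between control and injury (r = 0.481 over 8133 genes, r = 0.293 over 6155 in the cells with the connective tissue list ahead). With the replicate block edgeR called 4 genes over all the cells, 66 in the cells with the connective tissue list ahead, the same 18 among them, and 0 in those with the mesenchymal list ahead (113 at an unadjusted p under 0.05; DESeq2, run with no block, called 0). Within replicate numbers the share of cells differed by -5.31 and -2.63 percentage points between injury and control.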
